A study of Homo sapiens with 3 samples.

Results

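The miR-23/27/24 family of human microRNAs (miRNAs) is made from 2 paralogous clusters of hairpins, the miR-23a/27a/24-2 cluster and the miR-23b/27b/24-1 cluster. Members were taken by name: every mature arm of hsa-mir-23a, hsa-mir-27a, hsa-mir-24-2, hsa-mir-23b, hsa-mir-27b and hsa-mir-24-1, with the counts of an arm summed over its hairpins. These were 6 of the 1878 hairpins listed and 11 of 2590 mature names, because both mir-24 hairpins give the same 3p arm, miR-24-3p. Small RNA was sequenced from Flp-In T-REx 293 cells, a line derived from HEK293 human embryonic kidney cells that carries a tetracycline repressor. There were 3 libraries, with 1 per group. Cells had been stably transduced with a lentiviral GFP reporter driven by a doxycycline-inducible promoter, whose intron held no hairpin (empty vector, control), a synthetic miR-1 hairpin or a synthetic miR-122 hairpin. All 3 lines, the control among them, were selected in 1 mg/mL Geneticin for 6 days and then kept at a lower Geneticin concentration. They were given 1 ug/mL doxycycline daily over 7 days, and each library was prepared from 1000 ng of RNA. With 1 library per group there was no replicate check, no test between conditions was made, and every interval given below is a 95% interval for counting error alone. The reads carried no molecular identifiers, so PCR copies counted as separate reads.

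A miRNA hairpin is cut from a longer primary transcript by Drosha and then trimmed by Dicer to a duplex of a 5p and a 3p arm. Usually 1 arm, the guide strand, stays in an Argonaute protein and the other, the passenger strand, is degraded. The guide binds mRNAs mainly through its seed, bases 2 to 8 from its 5′ end, so that paralogs with a common seed share most of their targets. In this family the 3p arms are the guides. miR-23 is known for repressing glutaminase, miR-27 for repressing the adipocyte regulator PPARG, and miR-24 for acting on cell-cycle genes, and the clusters have been studied most in vessel, muscle, fat and immune cells.

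The clusters lie on different chromosomes. All positions are those of exact matches of the RefSeq hairpins to GRCh37, and each hairpin matched the genome at 1 place. The 23a cluster spans 373 bases on the minus strand of chromosome 19, with MIR23A at chr19:13947401-13947473, MIR27A at chr19:13947254-13947331 and MIR24-2 at chr19:13947101-13947173. All 3 hairpins were in an exon of MIR23AHG, a long non-coding host gene with 1 annotated transcript there. The 23b cluster spans 881 bases on the plus strand of chromosome 9, with MIR23B at chr9:97847490-97847586, MIR27B at chr9:97847727-97847823 and MIR24-1 at chr9:97848303-97848370. MIR23B and MIR27B were intronic in all 7 overlapping transcripts of AOPEP, which encodes aminopeptidase O. MIR24-1 was intronic in 6 AOPEP transcripts and overlapped an exon in 1. A further hairpin, MIR3074, was on the opposite strand over MIR24-1, at chr9:97848296-97848376.

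The guide arms are printed because a count can be given to one cluster or the other only through the bases in which paralogs differ. All 11 member arms were matched by name in the RefSeq table (GRCh38.p14), which held 2275 of the 2590 mature names. Sequences run 5′ to 3′ and capitals mark the seed.
hsa-miR-23a-3p: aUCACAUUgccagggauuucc
hsa-miR-23b-3p: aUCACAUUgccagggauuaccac
hsa-miR-27a-3p: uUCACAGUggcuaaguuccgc
hsa-miR-27b-3p: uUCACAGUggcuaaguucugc
hsa-miR-24-3p: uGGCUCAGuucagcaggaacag

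Counting positions from 1 at the 5′ end and writing the base of the 23a cluster first, miR-23a-3p and miR-23b-3p differed by U19A and by the longer 3′ end of miR-23b-3p (23 against 21 bases) in RefSeq. The counting used the mature sequences of miRBase 21, whose ends may differ from these. miR-27a-3p and miR-27b-3p differed by C19U alone. In both pairs the first 18 bases are identical, and 18 nt was also the shortest read the authors kept, so a read of that length from either start carries no base that tells the paralogs apart. The seeds of miR-23 and miR-27 are themselves close, with 1 difference in 7 bases (U7G, miR-23 first). miR-24-3p has the same sequence from both clusters, and only the 5p arms of its hairpins can be told apart.

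These passenger arms are printed because they are the only sequences in the count table that separate mir-24-1 from mir-24-2.
hsa-miR-24-1-5p: uGCCUACUgagcugauaucagu
hsa-miR-24-2-5p: uGCCUACUgagcugaaacacag
They share the first 15 bases and then differ at 6 of the rest (U16A, U18C, C19A, A20C, G21A and U22G, miR-24-1-5p first). The other passenger arms diverged more than the guides did, with 7 differences between miR-23a-5p and miR-23b-5p and 8 between miR-27a-5p and miR-27b-5p, against 1 in each pair of guides.

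The libraries held 1636834 (control), 2892684 (miR-1) and 2577292 (miR-122) miRNA counts, of which 1636481, 1791702 and 1947669 were endogenous. The labels were checked against the introduced miRNAs. Given in the order control, miR-1, miR-122 here and below, miR-1-3p, the muscle miRNA, had 166, 1100840 and 369 counts, and miR-122-5p, the liver miRNA, had 10, 10 and 627576. They made up 38.1% of the miR-1 library and 24.4% of the miR-122 library. Levels below are therefore given as CPM, counts relative to a fixed total of endogenous miRNA counts after TMM scaling, in which 1 count was worth 0.594, 0.556 and 0.532 CPM. miR-10a-5p had 210754, 245299 and 287733 counts. The paper names miR-10 as the endogenous miRNA it detected most, but from its own small RNA data, so these counts do not check the cell line. Of miRNAs that mark other cells, the 5 blood markers summed to 8.90 to 14.4 CPM with miR-223-3p at 0 in all libraries, miR-143-3p and miR-145-5p (smooth muscle and fibroblasts) summed to 58.5 to 97.9 CPM, and the endothelial miR-126-3p and miR-126-5p summed to 3353 to 4156 CPM. The part of these markers in the values below was not tested.

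Together the 11 arms made up 1.60% of endogenous counts in the control library (1.58 to 1.62%), 1.58% in the miR-1 library (1.57 to 1.60%) and 1.53% in the miR-122 library (1.51 to 1.54%). A single arm accounted for most of this. miR-27b-3p held 76.0%, 74.4% and 74.8% of all member counts, and miR-24-3p a further 16.0%, 17.5% and 17.9%. All 6 passenger arms together held 1.02%, 1.04% and 1.08%.

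miR-27b-3p, the guide of hsa-mir-27b, had 19896.5 counts in the control, 21130 in the miR-1 and 22231.5 in the miR-122 library. Its level was 11810, 11758 and 11819 CPM, and it ranked 21 or 22 among all endogenous miRNAs. The highest of these levels was 1.01 times the lowest. miR-24-3p had 4186, 4962 and 5311 counts, or 2485, 2761 and 2824 CPM, and ranked 50 to 56.

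The other 3 guides were lower still and close to each other. miR-23b-3p had 723, 830 and 743 counts (429, 462 and 395 CPM; ranks 122 to 127). miR-27a-3p had 648.5, 692 and 626.5 counts (385, 385 and 333 CPM; ranks 130 to 140). miR-23a-3p had 443, 485 and 502 counts (263, 270 and 267 CPM; ranks 151 to 155). These guides stood in the same order in every library. The counting intervals of miR-23a-3p lay below those of miR-27a-3p in all 3 libraries. Those of miR-23b-3p and miR-27a-3p overlapped in the control (398 to 462 and 356 to 416 CPM) and did not in the miR-1 library (431 to 494 and 357 to 415 CPM) or the miR-122 library (367 to 424 and 308 to 360 CPM).

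The passenger arms ranged from 75.1 CPM down to 0. miR-27b-5p had 116, 135 and 137 counts (68.9, 75.1 and 72.8 CPM) and miR-27a-5p 68, 85 and 91 (40.4, 47.3 and 48.4 CPM). miR-24-2-5p had 50, 45 and 47 counts (29.7, 25 and 25 CPM). These 3 were the passengers with more than 30 counts in every library. miR-24-1-5p had 18, 20 and 29 counts (10.7, 11.1 and 15.4 CPM), and miR-23b-5p 13, 9 and 18 (7.72, 5.01 and 9.57 CPM). miR-23a-5p had 2, 1 and 0 counts, at or under 3 counts in each library, and was the arm that did not pass the minimum mean count of 10. The other 10 arms passed it.

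**Figure D1:**
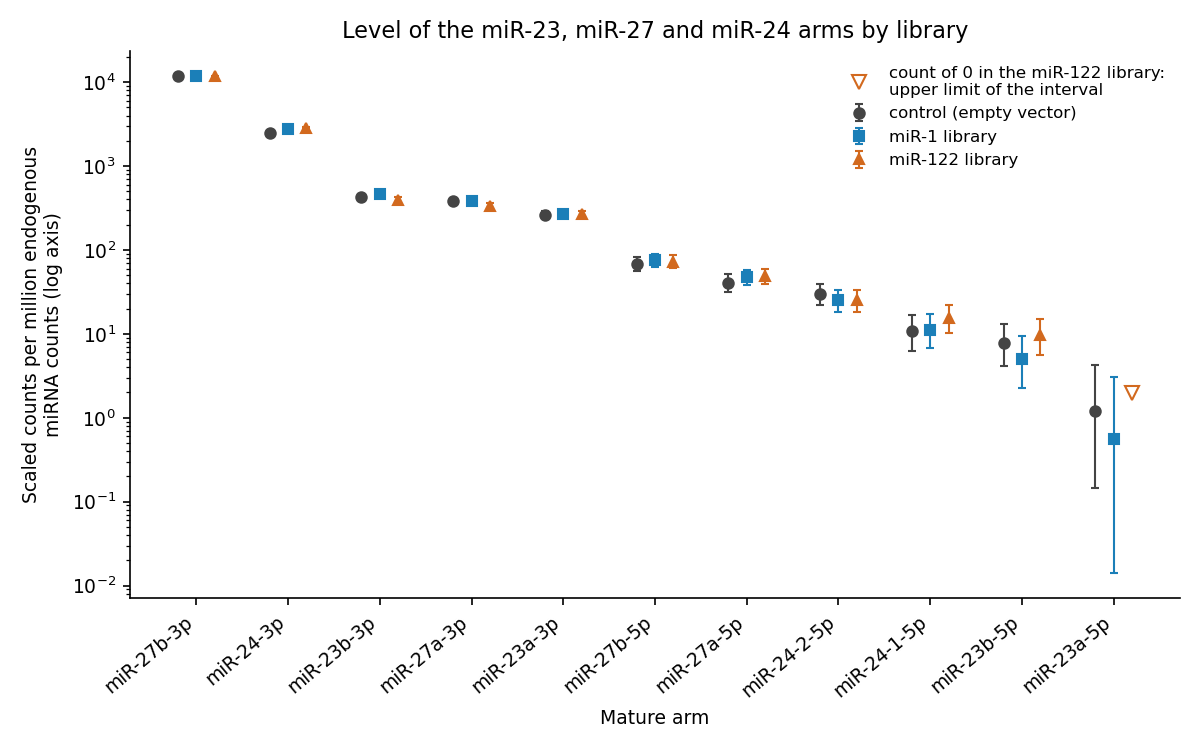
Scaled CPM (log axis) for the 11 mature arms, ordered by level, in the control (circles), miR-1 (squares) and miR-122 (triangles) libraries; bars are 95% Poisson intervals for counting error and the open triangle is the upper limit for a count of 0. miR-27b-3p lies between 11758 and 11819 CPM, miR-24-3p between 2485 and 2824 CPM, and the other 3 guides between 263 and 462 CPM.

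The clusters were first compared through their assignable guides, with miR-24-3p left out. miR-23b-3p and miR-27b-3p together had 18.9 times the counts of miR-23a-3p and miR-27a-3p in the control library (17.8 to 20.1), 18.7 times in the miR-1 library (17.6 to 19.8) and 20.4 times in the miR-122 library (19.2 to 21.6). With miR-24-3p added as the authors divided it, the ratio fell to 7.13, 6.68 and 6.77. This excess of the 23b cluster was carried almost wholly by miR-27. miR-27b-3p had 30.7 times the counts of miR-27a-3p in the control (28.4 to 33.2), 30.5 times in the miR-1 library (28.3 to 33.0) and 35.5 times in the miR-122 library (32.8 to 38.4). For miR-23 the same ratio, miR-23b-3p to miR-23a-3p, was 1.63 (1.45 to 1.84), 1.71 (1.53 to 1.92) and 1.48 (1.32 to 1.66).

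Written as shares, miR-23a-3p supplied 38% of miR-23-3p in the control (35.3 to 40.8%), 36.9% in the miR-1 library (34.3 to 39.5%) and 40.3% in the miR-122 library (37.6 to 43.1%). miR-27a-3p supplied 3.16% of miR-27-3p (2.92 to 3.40%), 3.17% (2.95 to 3.41%) and 2.74% (2.53 to 2.96%). The intervals of the miR-23 and the miR-27 share were far apart within each library. Between libraries the intervals of each share overlapped, which does not show that the shares were equal. For miR-27 the overlap was slight, with an upper limit of 2.96% in the miR-122 library against lower limits of 2.92% and 2.95%.

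The passenger arms of the same hairpins gave other proportions. miR-27a-5p supplied 37% of miR-27-5p in the control (30.3 to 44.1%), 38.6% in the miR-1 library (32.4 to 45.2%) and 39.9% in the miR-122 library (33.8 to 46.4%), so that miR-27b-5p exceeded miR-27a-5p by 1.71, 1.59 and 1.51 times. The passenger shares of mir-27a were thus close to the guide shares of mir-23a, and over 10 times the guide shares of mir-27a itself. Of the miR-24 passengers, that of the 23a cluster had more counts, which does not show where the guide miR-24-3p came from. miR-24-2-5p had 2.78 times the counts of miR-24-1-5p in the control (1.59 to 5.06). The ratio was 2.25 in the miR-1 library (1.30 to 4.02) and 1.62 in the miR-122 library (0.999 to 2.67). The last of these intervals reached equality, at 47 and 29 counts. miR-24-2-5p supplied 73.5% (62.0 to 82.6%), 69.2% (57.2 to 79.1%) and 61.8% (50.6 to 71.9%) of miR-24-5p, and these intervals overlapped. miR-23a-5p gave 2 of 15, 1 of 10 and 0 of 18 counts of miR-23-5p, the last of which allows a share of up to 17.6%, too few counts to rank the libraries.

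**Figure D2:**
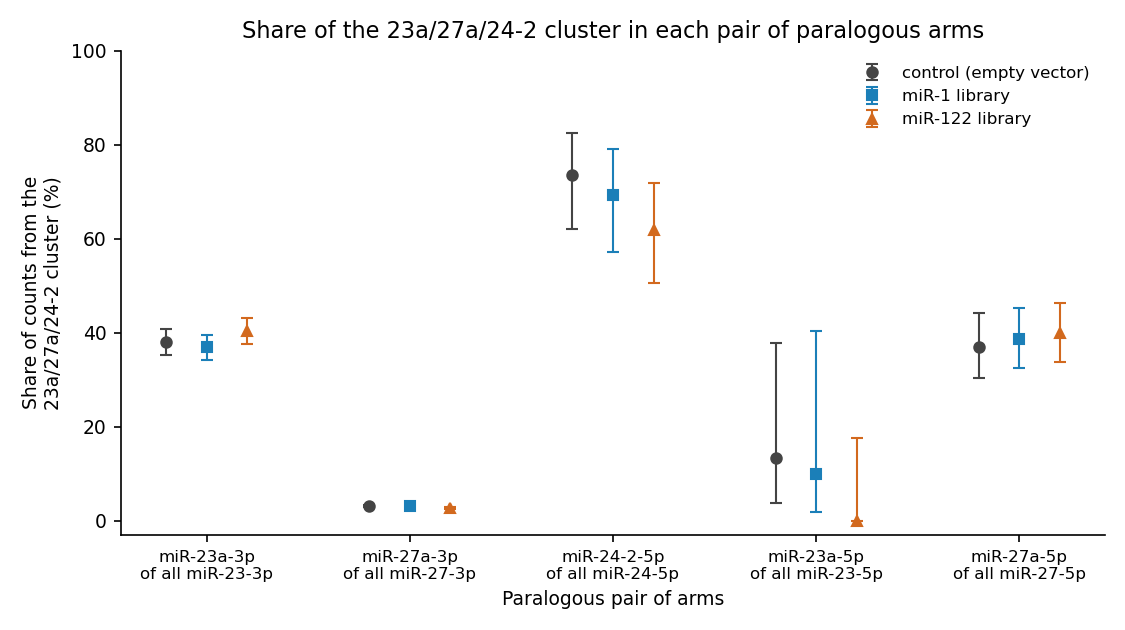
Share of counts (%) that the 23a/27a/24-2 cluster supplied in each pair of paralogous arms, by library; bars are 95% Wilson intervals. The cluster supplied 36.9 to 40.3% of miR-23-3p, 2.74 to 3.17% of miR-27-3p, 61.8 to 73.5% of miR-24-5p and 37 to 39.9% of miR-27-5p.

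The division of shared reads bears on these ratios. The deposited counts of miR-24-3p were 2094, 2481.5 and 2656 under hsa-mir-24-1 and 2092, 2480.5 and 2655 under hsa-mir-24-2, a nearly equal division that carries no information on which hairpin the reads came from. In the control and miR-122 libraries the counts of miR-27a-3p and miR-27b-3p both ended in a fraction (648.5 and 19896.5, then 626.5 and 22231.5) and summed to the whole numbers 20545 and 22858, so reads were divided within this pair too. Both paralogs get an equal part of such a read, which is a larger fraction of the lower count, that of miR-27a-3p. The number of reads divided is not given in the sources used here. Their effect on the ratios and shares with miR-27a-3p was therefore not tested, and the counting intervals leave it out. Counts of miR-23a-3p and miR-23b-3p were whole in all 3 libraries.

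Within the 23a cluster the assignable guides were less than 1.5-fold apart, with miR-27a-3p the higher and no interval reaching equality. miR-27a-3p had 1.46 times the counts of miR-23a-3p in the control (1.30 to 1.66), 1.43 times in the miR-1 library (1.27 to 1.61) and 1.25 times in the miR-122 library (1.11 to 1.41). Within the 23b cluster the corresponding ratio, miR-27b-3p to miR-23b-3p, was 27.5 (25.6 to 29.7), 25.5 (23.8 to 27.3) and 29.9 (27.8 to 32.2). The same pair of neighbours therefore stood less than 1.5-fold apart in one cluster and far apart in the other, in every library.

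Uneven guides were also seen in other clusters made from a common transcript. In the miR-106b-25 cluster, which lies in the MCM7 gene, miR-25-3p had 8.86, 11.1 and 14.5 times the counts of miR-106b-5p. In the miR-17-92 cluster, a MYC-activated set of proliferation miRNAs, miR-20a-5p had 39.3, 38 and 59.6 times the counts of miR-19a-3p among the 4 guides that come from 1 hairpin only. These ratios are not ranked against those of the miR-23/27/24 clusters, because they span 3 and 4 guides while miR-24-3p had to be left out there, which leaves a pair of guides. If all miR-24-3p counts were given to the 23a cluster, it would reach 9.45, 10.2 and 10.6 times miR-23a-3p. Counts of different miRNAs also depend on how readily each sequence is ligated and copied, which was not measured here.

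The seed families were not equal either. miR-27-3p from both clusters made up 79.3%, 77.7% and 77.7% of guide counts, miR-24-3p 16.2%, 17.7% and 18.1%, and miR-23-3p 4.50%, 4.68% and 4.23%. miR-27-3p had 4.91 (4.75 to 5.08), 4.40 (4.26 to 4.54) and 4.30 (4.18 to 4.44) times the counts of miR-24-3p. miR-24-3p had 3.59 (3.36 to 3.83), 3.77 (3.55 to 4.01) and 4.27 (4.01 to 4.54) times the counts of miR-23-3p. The order miR-27, miR-24, miR-23 held in every library. Seeds could be compared only for the 2275 of 2590 mature names with a RefSeq sequence. Among those, other miRNAs added almost nothing to these seeds. miR-23c, which has the miR-23 seed, had 0, 0 and 1 counts, and miR-9985, which has the miR-27 seed, was not among the names listed.

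Among the passengers, miR-27b-5p had 6.44, 6.75 and 4.72 times the counts of miR-24-1-5p and 8.92, 15.0 and 7.61 times those of miR-23b-5p. In the 23a cluster miR-27a-5p had 1.36 (0.930 to 2.0), 1.89 (1.30 to 2.77) and 1.94 (1.35 to 2.82) times the counts of miR-24-2-5p. The mir-27 hairpin thus had the most passenger counts in both clusters, although in the control library the interval for the 23a cluster included equality.

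Arm use separated mir-27a from mir-27b, mir-23a and mir-23b. Its 3p arm held 90.5% of the counts of both arms in the control (88.1 to 92.4%), 89.1% in the miR-1 library (86.7 to 91.1%) and 87.3% in the miR-122 library (84.5 to 89.4%). For hsa-mir-27b the 3p arm held 99.4% in each library, with intervals between 99.2 and 99.5%. Put as ratios, miR-27a-3p exceeded its passenger by 9.54 times (7.43 to 12.4), 8.14 times (6.49 to 10.3) and 6.88 times (5.52 to 8.68), whereas miR-27b-3p exceeded its own by 172 times (143 to 208), 157 times (132 to 187) and 162 times (137 to 193). The intervals of the paralogs did not meet in any library.

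For mir-23a, for mir-23b and for the mir-24 hairpins summed, the guide held nearly all counts. The 3p share of mir-23a was 99.6% (98.4 to 99.9%), 99.8% (98.8 to 100%) and 100% (502 of 502 counts, with a lower limit of 99.2%). That of mir-23b was 98.2% (97.0 to 99.0%), 98.9% (98 to 99.4%) and 97.6% (96.3 to 98.5%). The intervals of mir-23a and mir-23b overlapped in the control and miR-1 libraries and were separate in the miR-122 library. For both mir-24 hairpins together, miR-24-3p held 98.4%, 98.7% and 98.6%, with 61.6, 76.3 and 69.9 counts for each passenger count. The share in each mir-24 hairpin alone cannot be given, because miR-24-3p cannot be assigned.

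**Figure D3:**
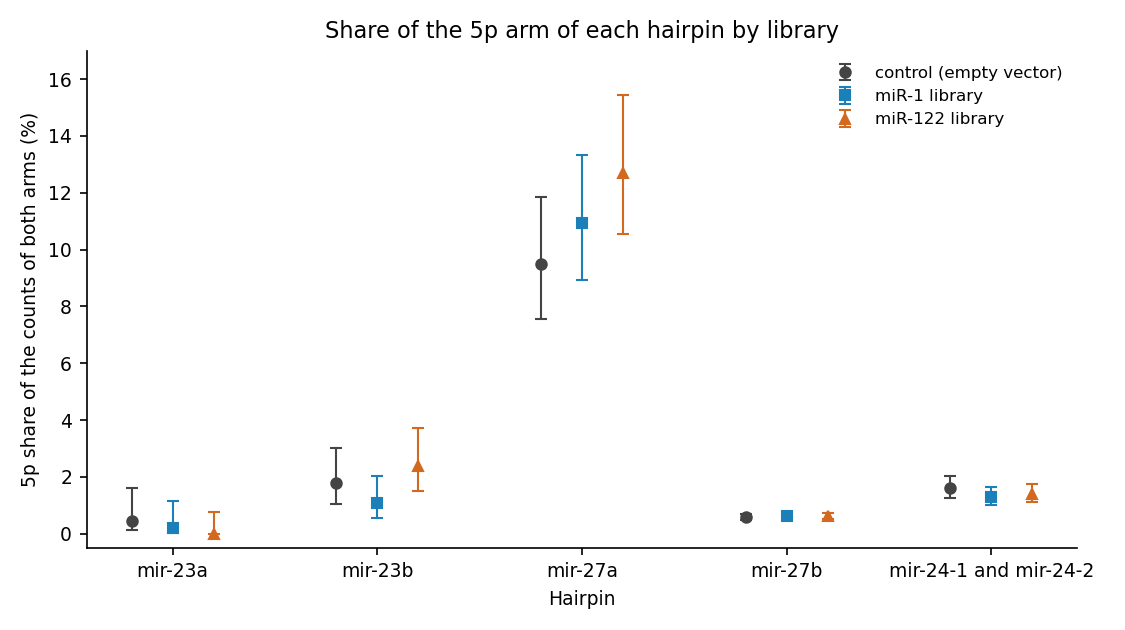
Share of the 5p arm (%) in the counts of both arms of each hairpin, by library, with the mir-24 hairpins summed because they share their 3p arm; bars are 95% Wilson intervals. The 5p share of mir-27a was 9.49, 10.9 and 12.7%, and that of mir-27b was 0.580, 0.635 and 0.612%.

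The comparison between libraries asked how far endogenous miRNAs of this family differed when another miRNA was made in large amounts in the same cells. A log2 ratio of scaled counts was taken for each arm, and arms at least 2-fold apart were counted. None of the 10 arms that passed the count minimum were 2-fold apart in the miR-1 library against the control, where 3.31% of the 514 endogenous miRNAs compared were. None were in the miR-122 library against the control, against 9.73% of all, and none between the miR-1 and miR-122 libraries, against 8.56% of all. Both of the first comparisons use the same control library. At 1.5-fold the counts were 1, 0 and 1 of 10 members, against 16.7%, 27% and 23.2% of all, and the member counted was miR-23b-5p each time. With only 10 arms, these counts are not a result about the family. The 514 also take in many miRNAs with fewer counts than the guides, so the shares are not a like comparison for the guides.

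Summed over the 11 arms, the log2 ratio was 0.02 for miR-1 to control (0.00 to 0.05), 0.03 for miR-122 to control (0.00 to 0.05) and -0.00 for miR-1 to miR-122 (-0.02 to 0.02). The sign of these sums depended on the scale: with the total of endogenous counts in place of TMM they were -0.0127, -0.0665 and 0.0538. The median over the 10 members was 0.05, 0.05 and -0.00, beside -0.00, -0.04 and 0.01 over all 514 miRNAs. The spread over all miRNAs, 1.4826 times the median absolute deviation, was 0.31, 0.52 and 0.42. It takes in miRNAs averaging as few as 10 counts, whose ratios carry more counting error than those of the abundant guides. Within that spread of 0 were 9, 10 and 8 members, the exceptions being miR-23b-5p and, between the miR-1 and miR-122 libraries, also miR-24-1-5p.

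miR-27b-3p, the most abundant member, had log2 ratios of -0.01 for miR-1 to control (-0.03 to 0.02), 0.00 for miR-122 to control (-0.03 to 0.03) and -0.01 between the miR-1 and miR-122 libraries. Its depth gave the narrowest interval of any member. miR-24-3p was higher in both miRNA libraries than in the control, with log2 ratios of 0.15 (0.09 to 0.21) and 0.18 (0.13 to 0.24). Those intervals left out 0, but the share of miRNAs of like depth whose intervals did so was not counted. Both values were smaller than the spread over all miRNAs, but that spread takes in miRNAs with far fewer counts. With the total of endogenous counts in place of TMM they were 0.11 and 0.09, the second below its counting interval. Among the 263 miRNAs averaging 100 counts or more, 0.760% and 3.80% were 2-fold apart from the control, against 3.31% and 9.73% of all 514. For miR-24-3p the miR-1 and miR-122 libraries did not differ from each other beyond counting error (-0.03, -0.09 to 0.02).

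For the lower guides, miR-27a-3p had a log2 ratio of 0.00 for miR-1 to control and -0.21 for miR-122 to control (-0.37 to -0.05). Its ratio of miR-1 to miR-122 was 0.21 (0.05 to 0.37). miR-23b-3p was higher in the miR-1 than in the miR-122 library by 0.23 (0.08 to 0.37), and its ratios to the control, 0.11 and -0.12, had intervals that included 0. miR-23a-3p had ratios of 0.04 to control in the miR-1 and 0.02 in the miR-122 library, both within counting error. The miR-122 library was thus low for miR-27a-3p and not for its paralog, by less than the spread over all miRNAs (0.52).

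When guides were summed by cluster, miR-23a-3p and miR-27a-3p had log2 ratios of 0.02 (-0.11 to 0.14) for miR-1 to control and -0.11 (-0.23 to 0.01) for miR-122 to control. Those of miR-23b-3p and miR-27b-3p were -0.00 (-0.03 to 0.03) and -0.00 (-0.03 to 0.02). By seed, miR-23-3p had 0.08 (-0.03 to 0.20) and -0.06 (-0.18 to 0.05), and miR-27-3p -0.01 in each. The intervals of these cluster and seed sums to the control included 0. Those of miR-24-3p, which stands for its whole seed family and cannot be given to a cluster, did not. Between the miR-1 and miR-122 libraries, intervals left out 0 for miR-23-3p (0.14, 0.03 to 0.26) and the 23a guides (0.13, 0.01 to 0.24). There they included 0 for miR-27-3p (-0.00, -0.03 to 0.03) and the 23b guides (0.00, -0.03 to 0.03).

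The passenger arms had wide intervals. miR-23b-5p, at 9 to 18 counts, had a log2 ratio of -0.60 for miR-1 to control (-2.03 to 0.71) and -0.90 for miR-1 to miR-122 (-2.27 to 0.29). miR-24-1-5p had 0.05 and 0.51 (-0.37 to 1.46) to the control. miR-27a-5p had 0.23 and 0.26, miR-27b-5p 0.12 and 0.08, and miR-24-2-5p -0.24 and -0.25. All of these intervals included 0. Against the control, those of miR-27a-5p, miR-27b-5p and miR-24-2-5p stayed within 2-fold, while those of miR-23b-5p and miR-24-1-5p reached past 2-fold in both comparisons.

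**Figure D4:**
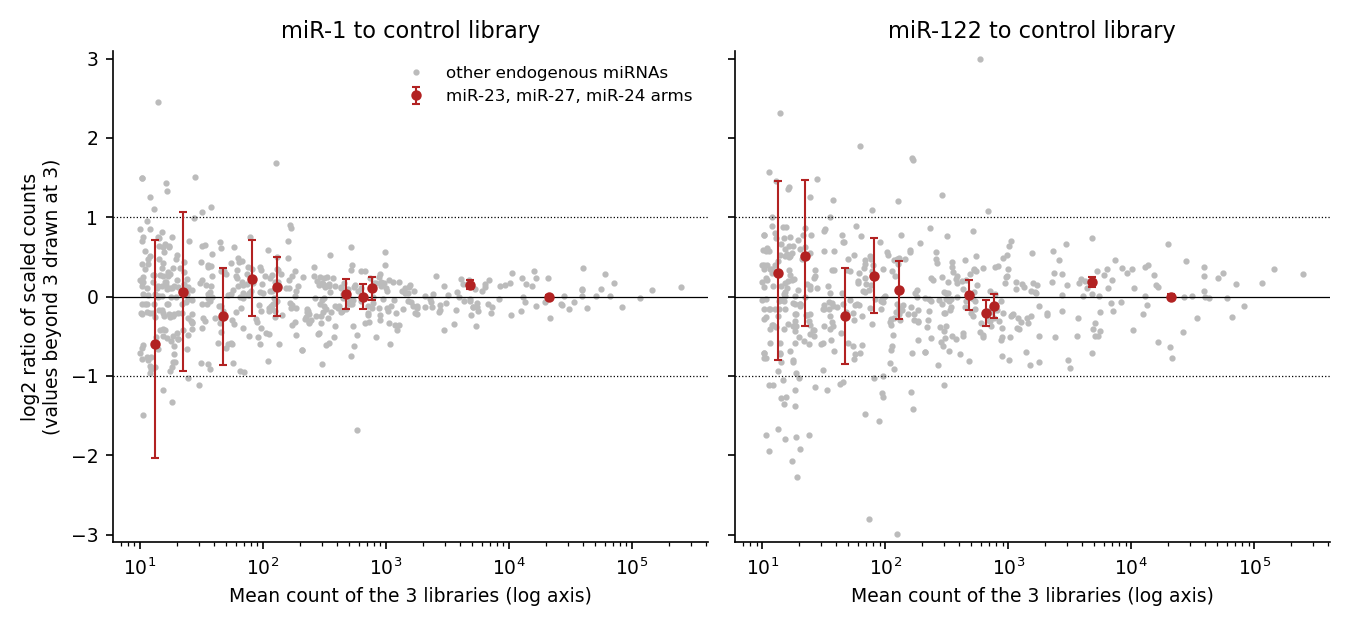
Log2 ratio of scaled counts to the control library against the mean count of the 3 libraries (log axis), for the miR-1 library (left) and the miR-122 library (right); dark points are the 10 arms of the family with 95% intervals for counting error, grey points the other endogenous miRNAs, and dotted lines mark 2-fold. No arm lies beyond 2-fold in either comparison, and miR-27b-3p, at the far right of the arms, lies at -0.01 and 0.00.

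The direction of some of these comparisons depended on the scale. In the authors' RPM, which counts the introduced miRNAs in the total, miR-27b-3p stood at 12155.48, 7304.63 and 8625.91. On that scale the median of all endogenous miRNAs moved by -0.73 for miR-1 to control and -0.50 for miR-122 to control, on the log2 scale. The ratios of miR-27b-3p moved with it, to -0.73 and -0.49, and miR-24-3p changed direction, to -0.58 and -0.31. Shares and ratios within a library do not depend on the scale.

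The hairpin on the opposite strand over MIR24-1 was read as well. miR-3074-5p is complementary to miR-24-3p over 20 bases, shown here with its seed in capitals.
hsa-miR-3074-5p: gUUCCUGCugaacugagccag
It had 75, 41 and 94 counts, so that miR-24-3p exceeded it by 55.8 (44.4 to 71.1), 121 (89.1 to 169) and 56.5 (46.1 to 70.0) times. The miR-1 library was the low one, with a log2 ratio to control of -0.96 (-1.55 to -0.40), while the control and miR-122 libraries differed by 0.16 (-0.29 to 0.62). The value to control lay outside the spread over all miRNAs (0.31), past 1.5-fold and short of 2-fold. Of all 514 miRNAs, 16.7% were at least 1.5-fold apart there. The miR-1 to miR-122 ratio was -1.12 (-1.70 to -0.59), past 2-fold, as were 8.56% of all. These values rest on 41 to 94 counts in single libraries. miR-3074-3p had 2, 7 and 7 counts.

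The 3 library levels make a short profile, and many miRNAs share one that is flat. Of 257 other endogenous miRNAs whose counts averaged 100 or more, those whose ratios to control were nearest to the summed family were miR-1260b (Euclidean distance 0.03 on the log2 scale), miR-3176 (0.03) and miR-128-3p (0.04). Their ratios to control were -0.00 and 0.03, 0.01 and -0.01, and -0.01 and 0.01.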

How the data were processed

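The authors removed adapters, kept reads of at least 18 nt, merged duplicates and counted them with miRDeep2 on miRBase 21 human hairpins plus their synthetic ones. The labels name hg19, but counting used hairpins. The mismatch setting is not given in the sources used here. The authors deposited estimated counts, in which a read matching several hairpins was divided among them, and RPM, which equalled the deposited counts scaled to a common library total to within 0.00652.

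Counts were summed over the hairpins of each mature miRNA, and 5 synthetic hairpins were left out of the endogenous set. Libraries were scaled by TMM (edgeR 4.0.16, R 4.3.3) on 514 of 1351 detected endogenous miRNAs, those averaging 10 or more counts. Log2 ratios used a pseudocount of 0.5. Intervals (Python 3.11.15, SciPy 1.17.1) were exact conditional binomial for ratios, Wilson for shares and exact Poisson for levels, on rounded counts. Those for ratios and shares were tested on simulated data, at counts higher than those of the passenger arms, and those for levels were not tested. The alternatives were DESeq2 1.42.0 size factors, library totals, a pseudocount of 5, other count minimums, a 1.5-fold limit, the highest hairpin instead of the sum, and other assignments of miR-24-3p.

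The miRNAs named were the member arms, sharers of their guide seeds, mir-3074, the introduced miRNAs, cell markers, the guides of the miR-106b-25 and miR-17-92 clusters, and the 3 nearest profiles. Members and lists were chosen with earlier results of these data known.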

Additional observations from a re-analysis of the deposited data

How the results depend on the processing

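Of 276 alternative values for 72 results, 221 stayed within the counting error of the value reported (for counts of arms, within 1.5 times) and 55 did not. Of 198 alternatives for single arms, 25 moved, 20 of them with the total of all miRNA counts as the scale. For the summed arms that scale gave log2 ratios of -0.70 and -0.47 to control in the miR-1 and the miR-122 library and, between the miRNA libraries, -0.23, each near the shift of the median of all miRNAs (-0.73, -0.50 and -0.23), and the total of endogenous counts gave -0.0127, -0.0665 and 0.0538. With all miRNA counts as the scale, 1 arm, miR-23b-5p, was past 2-fold for miR-1 to control and 1 (the same arm) between the miRNA libraries, and the 1.5-fold limit gave 1 and 1 as well, again miR-23b-5p. Without a count minimum 1 arm, miR-23a-5p at 0 to 2 counts, was past 2-fold in the miR-122 to control ratio and 1 (the same arm) between the miRNA libraries. As a share of all miRNA counts the family made up 0.982% of the miR-1 and 1.15% of the miR-122 library. With the highest hairpin instead of the sum, it made up 1.71%, 1.67% and 1.61% of endogenous counts, the 3p share of mir-24 was 96.9%, 97.4% and 97.2%, and the summed ratio of miR-122 to control was -0.00072. The 23b to 23a cluster ratio was 7.13, 6.68 and 6.77 with miR-24-3p as the authors divided it, 5.21, 5.09 and 5.67 with miR-24-3p divided by the 5p arms, and 17.1, 16.9 and 18.3 with every arm other than miR-24-3p. The 23b cluster was the larger in every case, and DESeq2 size factors and a pseudocount of 5 moved no result. No paired analysis was possible because with 1 library a group there is nothing to pair. Depth limits the passenger arms most: at 3 counts the floor was 1.78, 1.67 and 1.59 CPM.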

Other observations

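The deposited table also gives a pooled total that is larger than the sum of the 3 libraries. What else it holds is not given in the sources used here, so it may include other cells or treatments. In that total miR-27b-3p had 32.7 times the counts of miR-27a-3p, miR-23b-3p 1.60 times those of miR-23a-3p, miR-24-2-5p 2.02 times those of miR-24-1-5p and miR-27b-5p 1.63 times those of miR-27a-5p. miR-27a-3p had 8.07 times the counts of its passenger and miR-27b-3p 162 times. These values have no interval between libraries and are not independent of those of the single libraries.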
